A study of Mus musculus with 22 samples.

Results

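The MCM helicase and replication licensing genes examined here are 10 listed genes, taken from the 21887 protein-coding genes of the mouse reference: Mcm2, Mcm3, Mcm4, Mcm5, Mcm6, Mcm7, Cdc6, Cdt1, Orc1 and Gins1. A gene was given a peak when a peak of either deposited list overlapped it or lay within 1 kb of it, and a differential site when the authors' table named it. By these rules 5 of the 10 genes had a peak after cocaine, 3 of the same 10 had a peak after saline, and 1 had a differential site. The occupancy of E2F3a, an activating E2F transcription factor, was measured in nuclei of the nucleus accumbens, a striatal region involved in reward, by CUT&RUN. In this assay a nuclease tethered to the antibody cuts around the bound protein, and the freed fragments are sequenced. All groups were wildtype C57BL/6J mice of both sexes, injected daily for 7 days, intraperitoneally and in the home cage, with cocaine (20 mg/kg) or with saline. The labels list 7 cocaine libraries (2 female, 5 male) and 4 saline libraries (2 female, 2 male) with the E2F3a antibody. The age of the mice and the number of mice behind each library are not given in the labels, bulk punches mix all cell types of the region, and the files hold no RNA, so the tissue label could not be checked against marker genes.

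Before DNA can be copied, origins must be licensed. The origin recognition complex, whose largest subunit is Orc1, binds the origin and with Cdc6 and Cdt1 loads the ring of Mcm2 to Mcm7, the inactive core of the replicative helicase. The GINS complex, of which Gins1 is a subunit, later joins the ring with Cdc45 to make the active helicase. Many of these genes are classical E2F targets that are switched on as cycling cells pass from G1 into S phase, whereas most cells of the adult nucleus accumbens, neurons included, do not divide.

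The stretches of DNA around the starts of these genes carry the results below, so the promoter windows of the genes with a peak or a differential site are shown first, with the windows of Mcm6 and Mcm3, which had neither, for comparison. Each window runs 5′ to 3′ on the strand of the gene, from 250 bases before to 50 bases after a RefSeq transcription start in build GRCm38.p6, whose coordinates are those of mm10. The windows lie at chr8:75109259-75109558 (+) for Mcm5, chr5:138171834-138172133 (-) and chr5:138171217-138171516 (-) for the upstream and the downstream start of Mcm7, chr6:88898731-88899030 (-) for Mcm2, chr11:98907901-98908200 (+) for Cdc6, chr1:128359656-128359955 (-) for Mcm6 and chr1:20820263-20820562 (-) for Mcm3. Capitals mark matches to an E2F word on either strand, where the words searched were TTCCCGC and then TTCGCGC, as well as TTGCCGC and finally TTGGCGC, and matches that overlap form 1 run of capitals.
Mcm5: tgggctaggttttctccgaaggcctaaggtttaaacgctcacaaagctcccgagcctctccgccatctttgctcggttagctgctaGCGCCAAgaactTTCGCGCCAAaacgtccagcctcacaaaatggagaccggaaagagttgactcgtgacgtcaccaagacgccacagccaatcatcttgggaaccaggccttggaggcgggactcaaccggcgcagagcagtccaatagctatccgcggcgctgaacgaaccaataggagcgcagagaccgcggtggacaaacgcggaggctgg
Mcm7 upstream start: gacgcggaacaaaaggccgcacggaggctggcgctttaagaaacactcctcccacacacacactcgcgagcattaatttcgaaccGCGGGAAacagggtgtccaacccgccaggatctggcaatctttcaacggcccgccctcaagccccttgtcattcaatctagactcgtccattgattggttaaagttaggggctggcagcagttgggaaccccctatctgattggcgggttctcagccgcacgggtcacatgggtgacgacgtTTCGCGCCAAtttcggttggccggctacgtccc
Mcm7 downstream start: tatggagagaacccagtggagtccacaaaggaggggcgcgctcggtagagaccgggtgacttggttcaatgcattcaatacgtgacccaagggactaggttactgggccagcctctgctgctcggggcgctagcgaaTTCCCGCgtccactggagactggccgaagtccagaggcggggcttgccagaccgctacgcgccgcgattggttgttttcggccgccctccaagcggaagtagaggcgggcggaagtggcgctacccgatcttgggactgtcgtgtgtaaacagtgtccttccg
Mcm2: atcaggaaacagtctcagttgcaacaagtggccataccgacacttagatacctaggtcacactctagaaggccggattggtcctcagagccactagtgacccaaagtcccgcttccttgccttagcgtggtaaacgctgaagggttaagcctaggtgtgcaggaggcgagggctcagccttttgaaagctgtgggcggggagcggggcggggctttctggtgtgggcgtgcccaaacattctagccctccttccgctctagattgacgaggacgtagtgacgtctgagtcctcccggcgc
Cdc6: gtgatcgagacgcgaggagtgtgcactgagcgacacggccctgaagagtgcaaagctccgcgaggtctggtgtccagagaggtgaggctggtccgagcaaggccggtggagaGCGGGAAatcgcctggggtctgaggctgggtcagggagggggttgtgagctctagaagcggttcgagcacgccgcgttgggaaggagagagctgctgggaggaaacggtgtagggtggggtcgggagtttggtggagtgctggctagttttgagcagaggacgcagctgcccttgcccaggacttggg
Mcm6: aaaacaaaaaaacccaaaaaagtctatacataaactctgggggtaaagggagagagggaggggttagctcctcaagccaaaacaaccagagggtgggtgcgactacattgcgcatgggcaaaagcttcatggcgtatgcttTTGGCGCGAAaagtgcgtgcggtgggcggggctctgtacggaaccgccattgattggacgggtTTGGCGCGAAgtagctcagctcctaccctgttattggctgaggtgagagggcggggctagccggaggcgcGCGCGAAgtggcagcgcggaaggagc
Mcm3: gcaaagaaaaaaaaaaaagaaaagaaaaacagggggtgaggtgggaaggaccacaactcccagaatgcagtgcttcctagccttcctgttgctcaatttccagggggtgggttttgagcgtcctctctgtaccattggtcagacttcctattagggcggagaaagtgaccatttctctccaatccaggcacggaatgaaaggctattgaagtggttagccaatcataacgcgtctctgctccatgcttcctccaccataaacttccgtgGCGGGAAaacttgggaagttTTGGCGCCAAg
Of the 10 genes, 8 matched the promoter table, with 9 windows, and Mcm4 and Gins1 did not.

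E2F words were frequent in these windows. Of the 8 genes, 7 had at least 1 match, and Mcm2 had none on these letters. By window, 8 of the 9 held a match, against 9.57% of all 32851 windows in the table, 12.1% of the windows of protein-coding genes and 25.1% of the 1497 windows with a cocaine peak within 1 kb of the start. More than 1 match was found in 5 of the 9 windows, against 1.18% of all windows, 1.63% of those of protein-coding genes, 4.74% of those with a cocaine peak and 5.76% of those with a saline peak. Mcm6 held the most, 5 matches in 3 separate runs, and Mcm3, Mcm5 and the upstream window of Mcm7 held 3 each. In Mcm5 the word TTCGCGC on the strand of the gene overlapped TTGGCGC on the opposite strand, and the upstream window of Mcm7 held the same overlapping pair. Mcm6, with no peak in either list, held this pair with strands swapped, beginning at -109 and again at -46 bp from its start. The GC share of the windows ran from 48.7% in Mcm3 to 66.7% in Cdt1 with a median of 57.3%. That median was close to the 56.3% of windows of protein-coding genes, against 52.7% over all windows and 62.3% over windows with a cocaine peak. Their median number of CpG dinucleotides was 24, against 7 over all windows, 13 over those of protein-coding genes and 23 over windows with a cocaine peak. A word is a stretch of letters and was not tested as a binding site, and words and peaks did not always coincide. Mcm6, Mcm3, Cdt1, Orc1 and Cdc6 held words and had no peak in either list. Mcm2 held none in its window and had a cocaine peak, but that peak lay outside the window, so the letters under it were not searched.

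**Figure D1:**
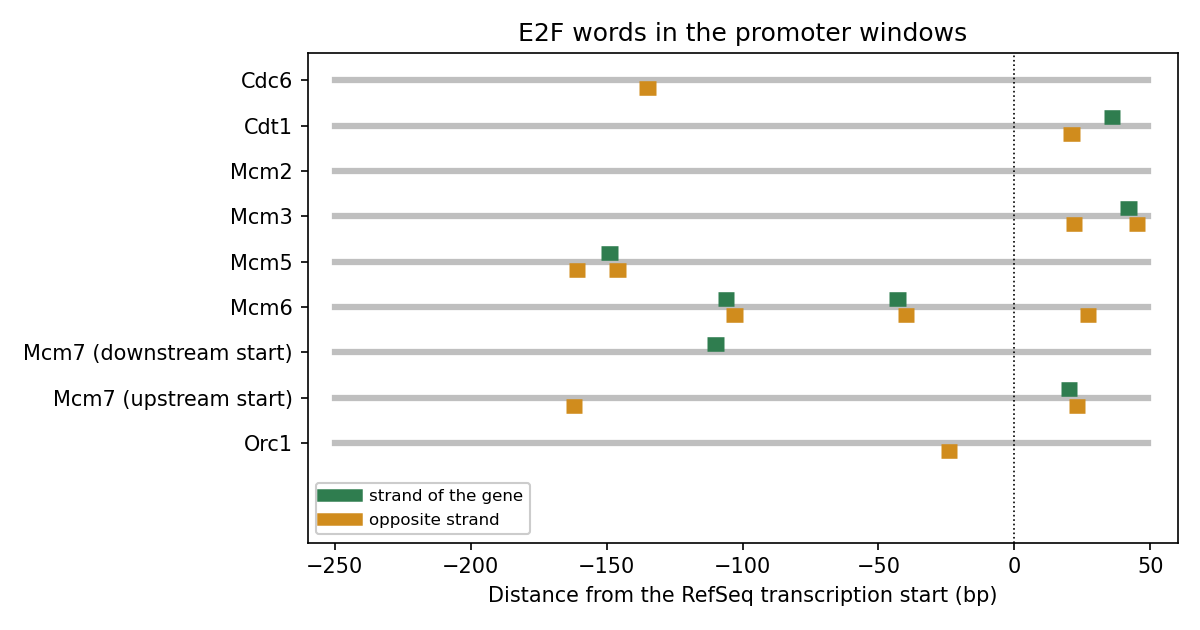
Positions of the E2F words in the 9 RefSeq promoter windows of 8 genes, by distance in bp from the transcription start (x axis). Green blocks above a line are matches on the strand of the gene and orange blocks below it matches on the opposite strand; Mcm6 holds 5 matches and Mcm2 none.

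The peak lists show where E2F3a was found after each treatment, 1 list per treatment pooled over libraries of both sexes. Mcm2, Mcm4, Mcm5, Mcm7 and Gins1 had a cocaine peak, which is 5 of 10 genes against 9.79% of all protein-coding genes (2143 of 21887). Mcm4, Mcm5 and Mcm7 also had a saline peak, which is 3 of 10 against 1.85% (405 of 21887). The genes were of ordinary length, with a median of 16.8 kb against 17.2 kb over all protein-coding genes. Counted instead by peaks within 1 kb of a RefSeq transcription start, 3 of the 8 genes in the promoter table had a cocaine peak (Mcm2, Mcm5 and Mcm7), against 6.08% of 17492 genes, and 2 a saline peak (Mcm5 and Mcm7), against 0.96%. Each pooled list is 1 measurement, so these shares are descriptions with no test, and the genes were chosen with earlier results of these data known. No IgG control values stand beside these peaks.

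The peaks of all 5 genes lay at 1 edge of the gene and not deep within it. For Mcm2, Mcm5 and Mcm7 that edge is the 5′ end of the gene, and no strand is given for Mcm4 and Gins1 in the table used here. Summits, the points of highest signal in a peak, fell between 353 bp outside the gene, at Mcm4, and 584 bp inside it, at Mcm7, in the cocaine list.

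**Figure D2:**
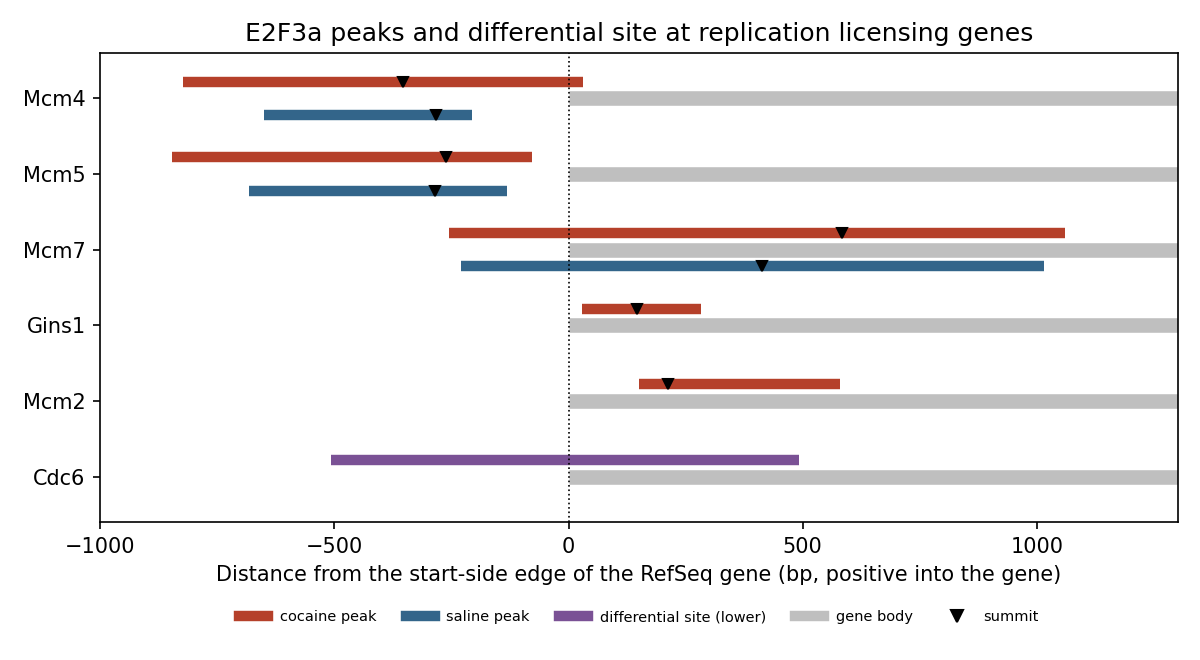
Cocaine peaks (red), saline peaks (blue) and the differential site (purple) at 6 genes, by distance in bp from the RefSeq gene edge beside the peak or site (x axis, positive into the gene, grey bars), with triangles at the summits. The saline peaks of Mcm4, Mcm5 and Mcm7 lie within the span of their cocaine peaks, and Mcm2 and Gins1 have a cocaine peak alone.

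Mcm4, a subunit of the helicase ring, had the peak with the highest fold enrichment of the whole cocaine list. Fold enrichment here is the authors' ratio of signal in a peak to the background of the peak caller, and it is read within a list, not between lists. The cocaine peak (chr16:15637370-15638223) had a fold of 43.2, rank 1 of 3467 peaks by fold and 31 by q. The saline peak (chr16:15637606-15638051) had a fold of 4.17, rank 287 of 725 by fold and 49 by q. By q the peak stood near the top of each list, whereas by fold it led the cocaine list and lay in the middle of the saline list. The lists were made separately, so the gap between 43.2 and 4.17 is no measured change.

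The Mcm4 peak is shared with a second gene. Only 43 bp separate Mcm4 (chr16:15623897-15637400) from Prkdc (chr16:15637444-15842239), which encodes the catalytic subunit of a DNA repair kinase, and the pair is known to be transcribed divergently from a common promoter. The cocaine peak overlapped Mcm4 by 31 bp and reached across the start of Prkdc, with its summit 309 bp past that start. The saline peak lay 206 bp from Mcm4, with its summit 238 bp past the start of Prkdc. By position alone the signal cannot be given to either gene, and with peaks required to overlap the gene Mcm4 kept its cocaine peak and lost its saline peak.

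Mcm5, the next ring subunit, also stood high in both lists. Its cocaine peak (chr8:75108621-75109389) had a fold of 17.9, rank 11 of 3467, and its saline peak (chr8:75108786-75109337) a fold of 7.08, rank 25 of 725. The summits were 24 bp apart, at -302 bp in cocaine and -326 bp in saline from the transcription start, and no other gene lay within 1 kb of either peak. Neither peak touched the gene itself, which began 79 bp from the cocaine and 131 bp from the saline peak. The cocaine peak covered 131 bases of the promoter window shown above, including all 3 of its E2F words, and the nearest word was centred 141 bp from the cocaine summit. The saline peak covered 79 bases of the window and 0 of the words.

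Mcm7, a ring subunit whose introns host a microRNA cluster, had broad peaks of middling fold. The cocaine peak (chr5:138171051-138172366) was 1316 bp wide with a fold of 4.84, rank 1828 of 3467, and the saline peak (chr5:138171096-138172340) was 1245 bp wide with a fold of 4.59, rank 196 of 725. By comparison, the median width was 487 bp in the cocaine list and 535 bp in the saline list. Each peak covered both promoter windows of Mcm7 in full, with 4 E2F words between them. The peaks also reached Ap4m1, which encodes a subunit of an adaptor complex for protein sorting and overlaps Mcm7 by 91 bp on the opposite strand. The cocaine summit lay at -261 bp from the downstream start of Mcm7 and the saline summit 185 bp past the upstream start, and the summits were 171 bp apart.

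Gins1 and Mcm2 had a peak in the cocaine list alone. At Gins1 the peak (chr2:150909585-150909839) was 255 bp wide with a fold of 8.54, rank 268 of 3467, and its summit lay 147 bp inside the gene edge. At Mcm2, which encodes a ring subunit that also binds histones, the peak (chr6:88898201-88898630) had a fold of 5.22, rank 1456 of 3467, and a summit 213 bp past the transcription start. The Mcm2 peak began 150 bp past the transcription start and so covered none of its promoter window. The nearest saline peaks were 1136.1 kb from Mcm2 and 2230.1 kb from Gins1. The cocaine list is the longer, with 3467 peaks against 725, and a peak missing from the shorter list is not a measured loss. With the cocaine list trimmed to its 725 peaks of smallest q, Mcm4, Mcm5 and Gins1 kept their peak and Mcm2 and Mcm7 did not, so 3 of the 10 genes had one, against 2.12% of protein-coding genes.

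**Figure D3:**
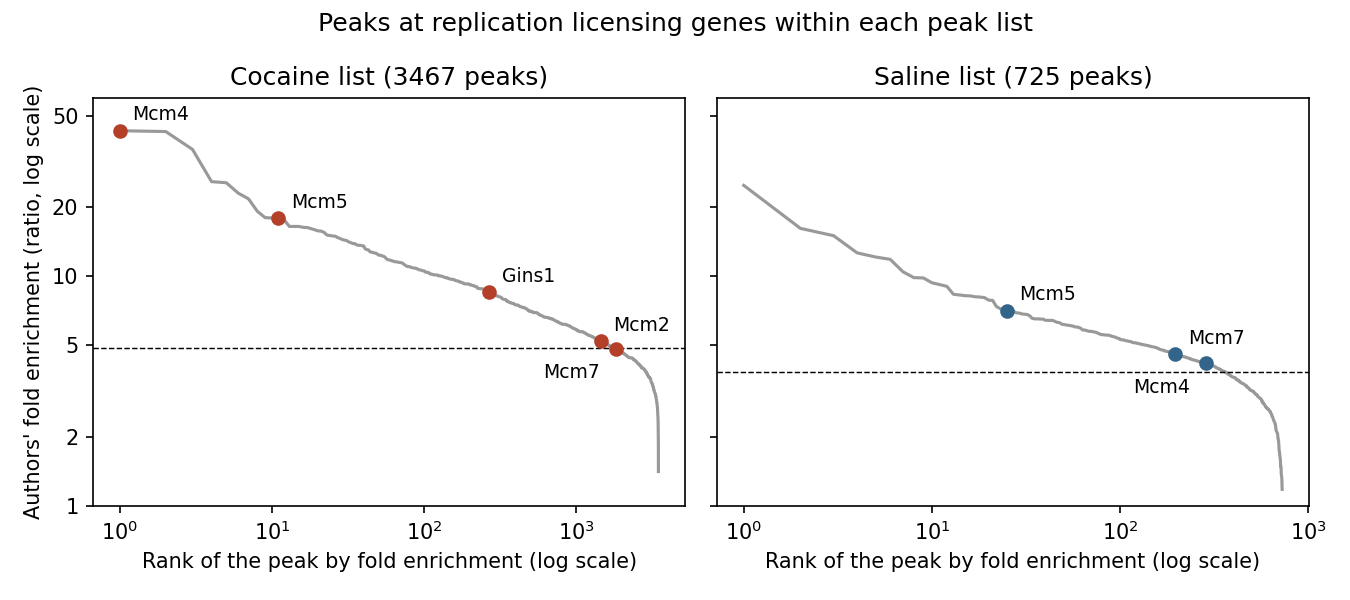
Authors' fold enrichment (ratio, y axis, log scale) of every peak by its rank within its own list (x axis, log scale), with the peaks of the licensing genes as named points and the list median as a dashed line. Mcm4 is rank 1 in the cocaine list and Mcm5 rank 25 in the saline list.

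Across the 5 cocaine peaks the fold ran from 4.84 to 43.2 with a median of 8.54, against a median of 4.88 in the whole list. Across the 3 saline peaks it ran from 4.17 to 7.08 with a median of 4.59, against 3.82 in the whole list. Overlap with a saline peak was found for 3 of the 5 cocaine peaks, against 15.7% of all 3467 cocaine peaks. Each of these 3 saline peaks lay entirely within its cocaine peak and made up 52.2% of its width at Mcm4, 71.8% at Mcm5 and 94.6% at Mcm7.

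The other 5 genes, Mcm3 and Mcm6 of the ring and the loading factors Cdc6, Cdt1 and Orc1, had no peak in either list. The 1 kb limit did not cut close. The farthest peak inside it was the saline peak 206 bp from Mcm4. Outside it, the nearest cocaine peak was 112.6 kb from Cdc6, 211.5 kb from Cdt1, 227.6 kb from Orc1, 228.5 kb from Mcm6 and 1142.9 kb from Mcm3. The nearest saline peak was between 121.5 kb away, at Cdc6, and 8010.5 kb away, at Orc1.

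The differential sites addressed which regions differed between cocaine and saline libraries. Cdc6, the ATPase that helps load the ring onto DNA, was the only 1 of the 10 genes with a site in the authors' deposited table, and the site was lower in cocaine. Over all protein-coding genes, 1.85% had a lower site and 1.06% a higher one at an adjusted p below 0.05. The site (chr11:98907202-98908200, annotated by the authors as a promoter) began 507 bp before the RefSeq start of the gene (chr11:98907709-98923942). It held the whole promoter window shown above, with its 1 E2F word. That window is set on a transcription start at chr11:98908151, which lies inside the gene record. The table lists only sites the authors selected as different on these libraries, so the absence of Mcm4, Mcm5, Mcm7, Mcm2 and Gins1 from it gives no value there.

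For 6 cocaine and 4 saline libraries the table holds a normalized count per site. The libraries are not named there and are numbered here by their place in the table. The labels list 7 cocaine libraries, so 1 has no value in the table, and which one it is, and the sex behind each value, are not known. At the Cdc6 site the saline libraries 1 to 4 had normalized counts of 35.85, 29.89, 27.62 and 30.06. The cocaine libraries 1 to 6 had 14.11, 29.12, 17.10, 20.75, 4.43 and 15.39. Of the 6 cocaine libraries 5 lay below every saline library, and cocaine 2 lay among them, above saline 3, so the groups overlapped. The cocaine mean was 16.8 ± 8.12 (SD, n = 6) and the saline mean 30.9 ± 3.51 (SD, n = 4), a log2 ratio of -0.88, with the cocaine mean at 54.5% of the saline mean. The difference passed an exact permutation test of the means, two-sided over 210 arrangements (exact p = 0.019, where the smallest possible is 0.0095). The authors' deposited table gives a log2 fold change of -0.88 at an adjusted p of 0.0037. As the authors picked the site on the same libraries, neither p is independent evidence.

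**Figure D4:**
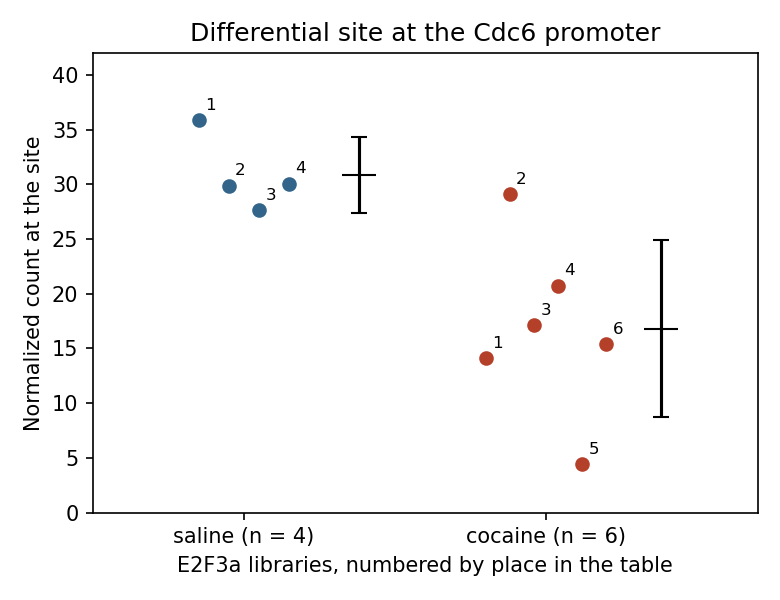
Normalized count at the Cdc6 promoter site (y axis) in each E2F3a library, with saline in blue and cocaine in red, point labels giving the place in the table and black bars the mean ± SD. Of the 6 cocaine libraries, 5 lie below all 4 saline libraries and cocaine 2, at 29.12, lies among them.

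The Cdc6 call did not hold in every setting. Cocaine libraries 5 and 6 had the fewest reads per unit of normalized count among the cocaine libraries. Without them the log2 ratio was -0.61 and the exact permutation p 0.0571, in a test with fewer arrangements and a higher smallest possible p. On log2(normalized count + 1) over all 956 listed sites, limma gave a difference of -1.0 ± 0.43 (SE, 95% interval -1.91 to -0.09). Its adjusted p there was 0.068, and limma called 353 of the 956 listed sites at an adjusted p below 0.05. The authors selected these sites on the same libraries, so the limma p and calls are not independent evidence either.

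The reads behind these values were few. Each library's values were whole multiples of the count worth 1 read, and in reads the saline libraries held 66, 47, 72 and 16, and the cocaine libraries 22, 28, 17, 16, 2 and 9. Cocaine 5, the lowest library, rested on 2 reads at 2.21 normalized counts per read, whereas saline 3 had 0.38 per read. Reads pooled within each group, divided by the summed reads per unit of normalized count of its libraries, gave a log2 ratio of -0.80.

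Among the 474 lower sites the fall at Cdc6 was a modest one on a comparatively enriched site. By the authors' deposited table its log2 fold change of -0.88 was rank 380 of 474 from the largest fall, where the median was -1.13 and the quartiles -1.37 and -0.93. Ranked by the authors' adjusted p from the smallest, the site was 390 of the 474. By the authors' enrichment over background in saline, 4.65, it was rank 15 of the 474 lower sites and rank 5 of the 191 lower sites at promoters within 1 kb of a start. In cocaine its enrichment was 1.79, against medians over all lower sites of 2.58 in saline and 1.13 in cocaine. No peak of either list overlapped this site, the nearest being a cocaine peak 112.1 kb away.

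The listed sites most like Cdc6 across the 10 libraries, by Pearson r on log2(normalized count + 1), were a distal intergenic site nearest to Meox1 (r = 0.958) and promoter sites of Abhd11 (r = 0.954) and Mettl24 (r = 0.953). These sites were also lower in cocaine, at log2 fold changes (authors' deposited table) of -1.29, -0.40 and -0.93, and r describes likeness among sites chosen on the same libraries. The lowest cocaine value was 0.0 at Meox1 and 2.21 at Mettl24, both near the floor. At Abhd11 cocaine values ran from 50.89 to 211.14 and saline values from 179.31 to 196.08. How far r rests on the lowest values was not tested.

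Other genes of replication initiation were examined as a wider list of 26 genes, chosen by function. Of these, 8 had a cocaine peak (30.8%, against 9.79% of protein-coding genes), 0 a saline peak (against 1.85%) and 0 a differential site in either direction. At 4 of the 8 the summit lay near an edge of the gene. These were Orc6, a subunit of the origin recognition complex (fold 6.70, 103 bp from the edge), Gmnn, which encodes the Cdt1 inhibitor geminin (fold 6.79, 145 bp), Tipin, a fork protection factor (fold 6.22, 69 bp), and Cdc45, the helicase activator (fold 3.81, 265 bp). At the other 4 the summit lay farther inside, at 2745 bp from an edge in Mcm10, 4148 bp in Orc4, 8736 bp in Rif1 and 10294 bp in Orc5, with folds of 4.57, 7.02, 5.30 and 3.86. None of the 8 genes' cocaine peaks overlapped a saline peak, where 15.7% of all cocaine peaks did. In the trimmed cocaine list Orc4 alone of the 26 kept a peak, against 2.12% of protein-coding genes.

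For setting, 2 of 13 E2F and RB family genes (E2f1 and Rbl1) had a cocaine peak (15.4%, against 9.79% of protein-coding genes) and 0 a saline peak (against 1.85%). These counts were not tested against those of the licensing genes.

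**Figure D5:**
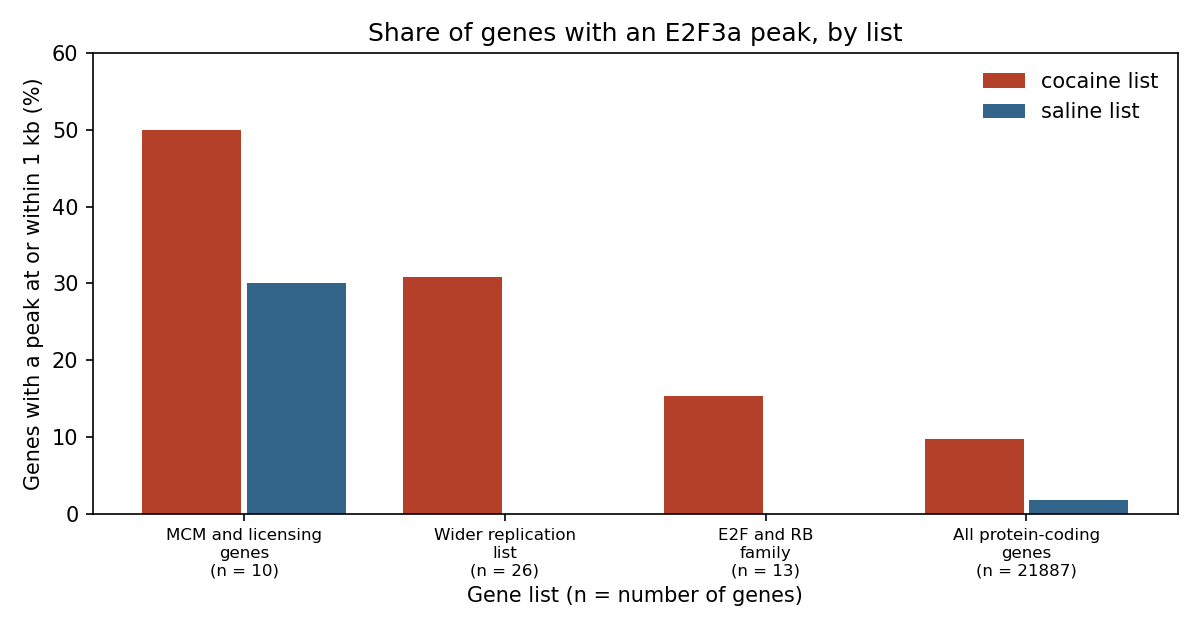
Share of genes (%, y axis) with a cocaine (red) or saline (blue) peak overlapping the gene or within 1 kb of it, for each gene list and for all protein-coding genes (x axis). The licensing genes stand at 50.0% in the cocaine list and 30.0% in the saline list, and all protein-coding genes at 9.79% and 1.85%.

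Depth sets a limit on all of these values. Over the 956 listed sites the recovered reads ran from 46536 to 102633 per cocaine library and from 41437 to 153637 per saline library, with a median of 13 to 25 and 14 to 48 reads per site. Total depth is unknown, as the table holds only listed sites. Whether libraries stand for separate animals is not stated in the labels, and the p-values therefore cover only the spread among libraries, which may be technical.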

How the data were processed

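E2F3a CUT&RUN libraries were compared between cocaine and saline mice. The authors deposited 1 peak list per treatment, pooled over both sexes by the list names and called with MACS. Each list gives for each peak a fold enrichment (ratio) and −log10 of its p and q. The authors also deposited a diffReps table with, per site, the log2 fold change, the p-value and adjusted p-value, the mean signal and enrichment ratio of each group, and normalized counts joined within a cell. Coordinates are mm10, per the submitters' processing notes. Not given in the sources used here are the aligner, versions, caller settings and how IgG was used. Another 2 IgG libraries, whose title and treatment label differ, were left unassigned.

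Gene positions, names and promoter windows came from RefSeq (GRCm38.p6). Peaks were linked to genes at a distance of at most 1 kb. The background was all protein-coding genes on assembled chromosomes, with differential sites matched by gene ID. The 6 and 4 library values of the Cdc6 site were compared by an exact permutation test of the means, two-sided. Alternatives included limma 3.58.1 (R 4.3.3) on log2(normalized count + 1), other distances and thresholds, and libraries left out. Recovered reads were taken from the step of each library, and 100.0% of values up to 20 reads were whole within 0.1 step. The functions and limma were tested on simulated data. Python 3.11.15 and scipy 1.17.1 were used. All 10 genes were named whatever their values, with wider list genes that had a peak, genes sharing a peak, and the 3 sites most like each differential site. The genes, lists and alternatives were chosen with earlier results of these data known. A list of DNA synthesis genes is not reported here.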

Additional observations from a re-analysis of the deposited data

How the results depend on the processing

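For the licensing genes, the count with a cocaine peak was 5, and 4 when peaks had to overlap the gene. It was 3 both within 1 kb of a transcription start, where Mcm4 and Gins1 have no entry in the table used, and when only the 725 cocaine peaks of smallest q were used. The count with a saline peak was 3, and 1 when peaks had to overlap the gene, since the peaks of Mcm4 and Mcm5 lay just outside. The wider list count of 8 cocaine peaks fell to 1 with the trimmed list, as the share of all protein-coding genes fell from 9.79% to 2.12%. Counts within 5 kb and at a q of 0.001 were the same as reported. At that q, 8.76% of protein-coding genes had a cocaine peak and 1.6% a saline peak. The shares of all genes within 5 kb and by overlap alone are not given here. The 3 shared peaks were shared under 50% reciprocal overlap and with summits within 250 bp. Cdc6 was the 1 gene with a site at an adjusted p below 0.01 and by coordinates. The log2 ratio at the Cdc6 site was -1.10 to -0.68 with each library left out in turn, with exact permutation p from 0.0159 to 0.0476. It lost its call without the cocaine libraries 5 and 6 (-0.61, exact permutation p = 0.0571). In limma, which called 353 of the 956 listed sites, it also lost its call (-1.0, adjusted p = 0.068), and the cause was not tested. With a pseudocount of 1 or 0.5 it was -1.0 or -1.03. Words around peak summits were not run, since no genome sequence was used here. No paired analysis was possible because the library values carry no replicate numbers.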
